A study of Mus musculus with 6 samples.

Results

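Small leucine-rich proteoglycans are secreted proteins whose curved core of leucine-rich repeats binds collagen fibrils and growth factors, and many of them carry chondroitin, dermatan or keratan sulfate chains. In connective tissue they set the width and spacing of fibrils and hold ligands such as TGF-beta in the matrix, and keratocan (Kera) and lumican (Lum) are best known from the transparent cornea. In the embryonic palate they are made mainly by mesenchyme, which forms the core of the palatal shelves. Transcripts of 10 such genes were followed here among the 56691 genes of the count files: Kera, Lum, decorin (Dcn) and epiphycan (Epyc), which lie side by side on chromosome 10, asporin (Aspn), osteomodulin (Omd) and osteoglycin (Ogn), which lie side by side on chromosome 13, and biglycan (Bgn), fibromodulin (Fmod) and prolargin (Prelp) elsewhere. The genes were chosen by symbol as members of this family, with the difference of Kera and its relatives between palate regions already known. Their regional differences are therefore given as a description with no p-value, and the count of members called is set beside that of all genes only for reference.

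The libraries are bulk RNA-seq of palatal shelves microdissected from C57BL/6J mouse embryos at embryonic day 14.0, 3 of the anterior and 3 of the posterior region, with no mutation or treatment named in either group. Whether each library came from 1 embryo or a pool is not given in the sources used here, so error terms measure only the spread between these samples. In bulk tissue, fewer cells of a type and less RNA per cell cannot be told apart. The 5 mesenchyme markers were present in all 6 libraries, with a summed level of 1641 to 1720 CPM in the anterior and 1301 to 1648 CPM in the posterior palate. They did not move together. Prrx1 was called by edgeR as lower in the posterior palate (log2 fold change -1.34) and Twist1 (0.74) and Pdgfra (1.06) as higher, while Twist2 (0.97) and Osr2 (-0.43) were not called, and the median was 0.74. With the library-group term Pdgfra came to 0.38, its posterior libraries having 382, 681 and 779 CPM.

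Each library held 11378736 to 15172733 counts on genes, and values are given as CPM, counts relative to library depth after TMM scaling. A count of 0 allows a level of up to 3 counts, which was 0.206 to 0.260 CPM depending on the library and allows for counting error alone. Posterior replicates 2 and 3 stood apart from the other 4 libraries. Their share of multimapping reads was 6.12% and 5.94%, against 8.45% to 8.77% elsewhere, and mitochondrial genes held 0.973% and 1.14% of their counts, against 2.70% to 2.97%. Both are posterior, so a fit with a term for these library groups was also made, in which the regional difference rests on posterior replicate 1 against the anterior libraries.

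The sequence in front of 3 of the genes is shown because they stand for the 3 patterns described below: Kera, low in the anterior and far higher in the posterior libraries, Aspn, abundant in both and higher in the posterior libraries, and Fmod, higher in the anterior libraries. Each is the RefSeq window of GRCm38.p6 from 250 bases before to 50 bases after the annotated start, 5′ to 3′, all on the plus strand, at chr10:97606955-97607254, chr13:49544193-49544492 and chr1:134037004-134037303. Capitals mark TATAAA and the E-box CANNTG, searched on both strands together with the homeodomain core TAATTA.
Kera: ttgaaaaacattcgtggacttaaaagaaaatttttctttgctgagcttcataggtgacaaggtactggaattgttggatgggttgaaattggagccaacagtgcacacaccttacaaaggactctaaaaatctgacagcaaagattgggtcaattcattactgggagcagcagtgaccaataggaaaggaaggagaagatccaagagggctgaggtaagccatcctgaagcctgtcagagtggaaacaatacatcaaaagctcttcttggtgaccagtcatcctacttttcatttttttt
Aspn: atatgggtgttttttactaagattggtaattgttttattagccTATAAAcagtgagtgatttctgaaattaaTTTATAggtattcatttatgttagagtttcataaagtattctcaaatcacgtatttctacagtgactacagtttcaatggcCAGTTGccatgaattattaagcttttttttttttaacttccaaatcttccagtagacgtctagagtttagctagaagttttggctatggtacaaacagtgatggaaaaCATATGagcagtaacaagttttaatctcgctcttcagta
Fmod: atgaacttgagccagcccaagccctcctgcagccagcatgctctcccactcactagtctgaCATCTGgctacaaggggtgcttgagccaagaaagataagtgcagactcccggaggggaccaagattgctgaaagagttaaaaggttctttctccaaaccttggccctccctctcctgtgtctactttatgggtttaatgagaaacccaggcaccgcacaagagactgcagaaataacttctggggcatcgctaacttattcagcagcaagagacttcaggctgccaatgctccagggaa

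None of the 3 motifs was found in the Kera window. The window lies inside the Kera model of GENCODE M21, which begins at 97606879, upstream of the RefSeq start. The Aspn window held TATAAA at 2 places, with the first base at positions -207 and -178 from the start, and E-boxes at -97 and 12. Fmod had 1 E-box, at -189. Among 32851 RefSeq windows of this length, 13.6% held TATAAA, 72.3% an E-box and 5.29% TAATTA, so the E-box is a common match. Windows were at hand for 8 of the 10 genes, the exceptions being Lum and Dcn. The Ogn window held TATAAA on both strands at overlapping places and 4 E-boxes, that of Omd none of the motifs, those of Bgn and Prelp 1 E-box each, and each of the windows of Epyc 2 E-boxes.

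Kera (ENSMUSG00000019932.9, chromosome 10 from 97606879 to 97613692, GRCm38) encodes a keratan sulfate proteoglycan of the corneal stroma. It had 4.48, 3.05 and 3.11 CPM in anterior replicates 1, 2 and 3, and 100.2, 74.6 and 89.8 CPM in posterior replicates 1, 2 and 3. These values rest on 36 to 59 counts per anterior library and 1032 to 1339 per posterior library. The regions did not overlap, and the lowest posterior library was far above the highest anterior library. The mean was 3.55 ± 0.805 CPM in the anterior and 88.2 ± 12.9 CPM in the posterior palate (SD, n = 3 each), a ratio of 24.9, with a log2 fold change of posterior over anterior palate of 4.63 (standard error 0.20). Posterior replicate 1, which shared the mapping profile of the anterior libraries, had the highest value of all, and the fold change was 4.81 with the library-group term.

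Lum, which lies 5′ of Kera in the same orientation (97565128 to 97572703) and controls fibril width in cornea, skin and tendon, was abundant in both regions. The anterior libraries had 311, 281 and 299 CPM and the posterior libraries 423, 514 and 666 CPM. Again the regions did not overlap, but the difference was of another size than that of its neighbour. Its log2 fold change was 0.85 (standard error 0.17), and 0.51 with the library-group term. For every 100 reads of Lum there were 1.04 to 1.44 reads of Kera in the anterior libraries and 13.5 to 23.7 in the posterior libraries.

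Dcn, the dermatan sulfate proteoglycan that binds the surface of type I collagen fibrils and TGF-beta, opens the cluster (97479609 to 97518143). Its levels were 170.3, 150.5 and 157 CPM in the anterior and 136, 113 and 173 CPM in the posterior libraries. The regions overlapped, since posterior replicate 3 was the highest library and posterior replicate 2 the lowest. The log2 fold change was -0.18 (standard error 0.16), and -0.23 with the library-group term. The ratio of Lum to Dcn reads was 1.83 to 1.91 in the anterior and 3.11 to 4.57 in the posterior libraries.

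Epyc, a cartilage proteoglycan of the growth plate, closes the cluster (97644068 to 97682454). It had 6, 5 and 2 counts in the anterior and 5, 8 and 14 counts in the posterior libraries, and was below the filter of at least 10 counts in at least 3 libraries. In CPM the anterior libraries had 0.455, 0.364 and 0.173 and the posterior libraries 0.374, 0.578 and 0.960. A regional difference was not detectable at this depth. A long noncoding RNA, Gm10754, overlaps Epyc on the other strand, and these counts are of the Epyc strand.

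**Figure D1:**
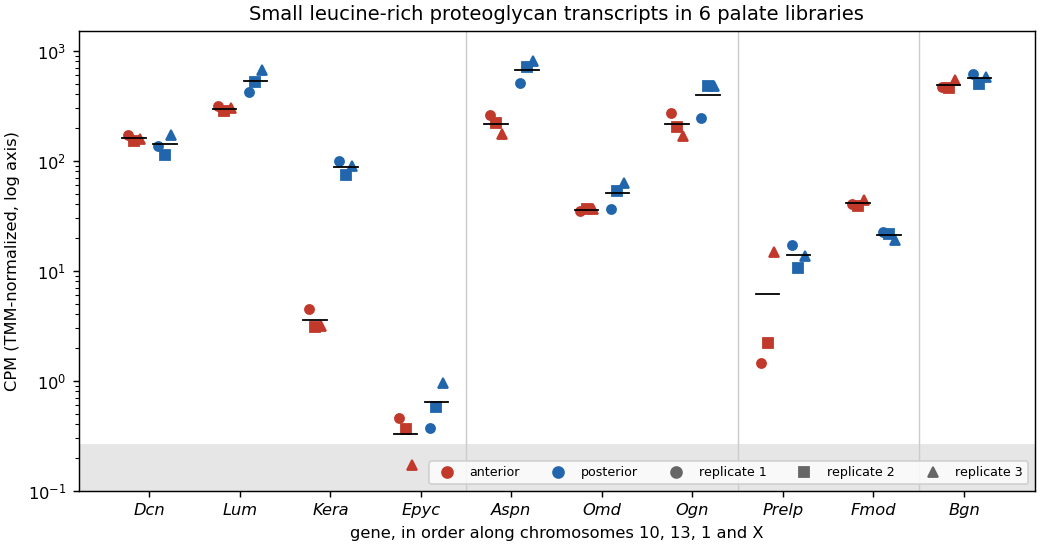
CPM of each of the 10 genes (log axis) in the 3 anterior (red) and 3 posterior (blue) libraries, with the marker shape giving the replicate, the bar the mean and the grey band the level of 3 counts or fewer. Kera sits at 3.05 to 4.48 CPM in the anterior and 74.6 to 100.2 CPM in the posterior libraries, while Bgn and Dcn overlap between regions and Prelp has 1 anterior library at the posterior level.

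The 3 genes on chromosome 13 lie within 80.1 kb, all on the plus strand and all within the gene body of Cenpp, which runs on the minus strand. Aspn (49544443 to 49567565) encodes a core protein without glycosaminoglycan chains that binds collagen and TGF-beta and is abundant in periodontal ligament and perichondrium. It had 259, 218 and 173 CPM in the anterior and 505, 704 and 809 CPM in the posterior libraries. The regions did not overlap. Its log2 fold change was 1.63 (standard error 0.21), or 1.22 with the library-group term, the widest difference of the cluster.

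Ogn (49608046 to 49624501), also called mimecan, is found in bone, cornea and vessel walls. The anterior libraries had 273, 203 and 167 CPM and the posterior libraries 242, 474 and 473 CPM. Here posterior replicate 1 lay within the anterior range, and the higher posterior mean (396 ± 134 against 214 ± 54.0 CPM, SD, n = 3 each) came from posterior replicates 2 and 3. The log2 fold change of 0.89 (standard error 0.29) was 0.18 with the library-group term.

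Omd (49582462 to 49592822), a keratan sulfate proteoglycan of mineralizing tissue that lies between them, showed the same division. Its anterior libraries had 34.9, 36.6 and 36.3 CPM and its posterior libraries 36.2, 52.7 and 62.5 CPM. Posterior replicate 1 was again within the anterior range. The log2 fold change of 0.49 (standard error 0.19) fell to 0.011 with the term. For Ogn and Omd the region and the library group cannot be told apart, whereas for Kera, Lum and Aspn posterior libraries of either kind were above all anterior libraries.

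The remaining genes went different ways. Fmod (chromosome 1, 134037254 to 134048277), a keratan sulfate proteoglycan that binds collagen in tendon and cartilage, had 40.5, 38.5 and 43.7 CPM in the anterior and 22.5, 21.7 and 19.1 CPM in the posterior libraries. It was the only one of the 10 genes whose anterior libraries were all above its posterior libraries. The mean was 1.94 times as high in the anterior as in the posterior palate, with a log2 fold change of -0.95 (standard error 0.11), and -0.86 with the library-group term.

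Bgn (chromosome X, 73483602 to 73495933), a close relative of Dcn with chondroitin or dermatan sulfate chains that is abundant in bone, was the most abundant by CPM in the anterior palate. It had 466, 455 and 546 CPM in the anterior and 608, 502 and 579 CPM in the posterior libraries. The ranges overlapped, and the log2 fold change was 0.20 (standard error 0.12), or 0.31 with the library-group term.

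Prelp (chromosome 1, 133910304 to 133921414, minus strand) encodes a protein whose basic N-terminus binds heparin and heparan sulfate and which is thought to anchor basement membranes to connective tissue. Its posterior libraries had 17.2, 10.6 and 13.6 CPM, while anterior replicates 1, 2 and 3 had 1.44, 2.18 and 14.9 CPM. Anterior replicate 3 was thus at the posterior level. The log2 fold change of 1.19 (standard error 0.75) was 2.92 without that library, and 1.52 with the library-group term. The same library had the highest anterior summed level of dental mesenchyme markers (738 CPM over 6 genes against 319 and 386 CPM, and 547 to 816 CPM in the posterior libraries). Among them Tfap2b had 117 CPM against 1.97 and 15.4 CPM, and Dlx2 52.1 CPM against 9.86 and 16.3 CPM. In the posterior libraries, where Prelp was also high, Tfap2b had 2.40 to 3.61 CPM and Dlx2 17.3 to 19.9 CPM, and the gene with the highest level there was Barx1 (240 to 384 CPM). Markers of other tissues also stood apart in anterior replicate 3. The tendon marker Scx had 11.3 CPM there against 4.70 and 3.20 CPM, and 11.7 to 14.9 CPM in the posterior libraries. The pericyte marker Rgs5 had 77.4 CPM against 32.3 and 33.2 CPM, and 9.96 to 13.2 CPM in the posterior libraries. The osteoblast marker Spp1 had 9.34 CPM against 0.986 and 1.31 CPM, and 4.11 to 4.26 CPM. The part of any of these cells in the Prelp value was not tested. An antisense gene, Gm15851, overlaps Prelp.

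Over all genes, 7.46% of the 15673 tested were called at an adjusted p below 0.05 by edgeR's quasi-likelihood test, 4.87% as higher in the posterior and 2.59% as higher in the anterior palate. Of the 9 family members tested 4 were among them, Kera, Lum and Aspn toward the posterior and Fmod toward the anterior palate. Lum was not among them with the library-group term, nor without anterior replicate 1, anterior replicate 2, anterior replicate 3 or posterior replicate 2, whereas Kera, Aspn and Fmod were in each of these fits. The same 4 were those whose libraries did not overlap between regions, as was so for 28.0% of all genes tested. Nothing is read from these counts, since the members were chosen with the contrast known. The median log2 fold change was 0.85 over the 3 tested genes on chromosome 10 (-0.18 to 4.63), 0.89 over the 3 on chromosome 13 (0.49 to 1.63) and 0.20 over the others (-0.95 to 1.19), against -0.0040 over all genes. With the library-group term these medians were 0.51 on chromosome 10, 0.18 on chromosome 13 and 0.31 over the others, so that the others then lay above the chromosome 13 group. The genes of a cluster thus differed among themselves, and the range within the chromosome 10 group was wider than the gap between the medians of any groups.

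**Figure D2:**
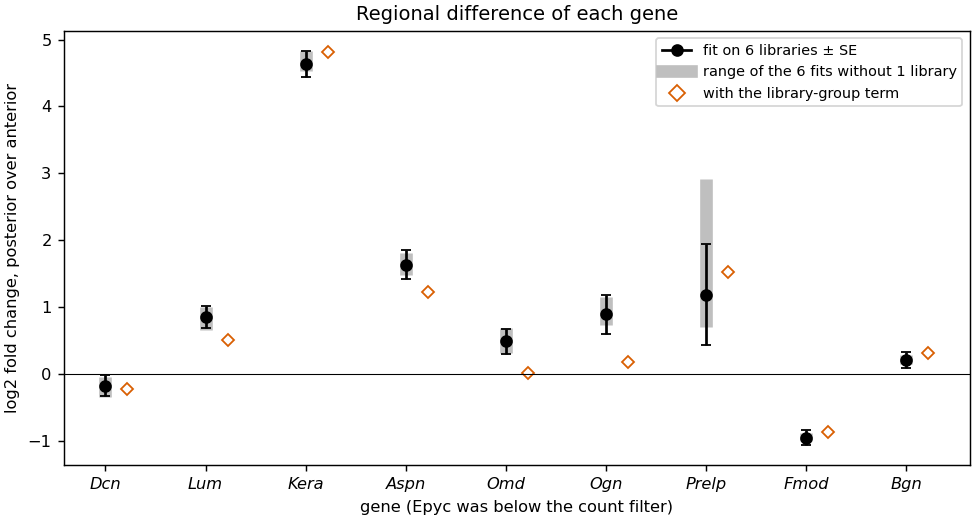
Fitted log2 fold change of posterior over anterior palate for the 9 genes above the count filter (black, ± standard error), the range of the 6 fits that each leave out 1 library (grey) and the value with the library-group term (orange diamonds). Kera stays between 4.52 and 4.83 and Fmod between -0.999 and -0.88, Ogn and Omd come down to 0.18 and 0.011 with the term, and Prelp spans 0.71 to 2.92.

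Levels of different genes were compared as CPM per kilobase of the union of annotated exons. In the anterior palate the order was Lum (121 ± 6.23), Aspn (92.1 ± 18.2), Ogn (83.5 ± 21.1), Bgn (80.2 ± 8.13), Dcn (27.3 ± 1.73), Omd (16.0 ± 0.413), Fmod (12.4 ± 0.787), Prelp (1.71 ± 2.09), Kera (1.56 ± 0.353) and Epyc (0.129 ± 0.0562), in CPM per kilobase (SD, n = 3). Neighbours whose libraries overlapped were Aspn and Ogn, Ogn and Bgn, and Prelp and Kera. In the posterior palate the order was Aspn (286 ± 65.6), Lum (218 ± 50.03), Ogn (155 ± 52.1), Bgn (92.3 ± 8.94), Kera (38.7 ± 5.66), Dcn (24.1 ± 5.20), Omd (22.4 ± 5.89), Fmod (6.39 ± 0.530), Prelp (3.83 ± 0.913) and Epyc (0.249 ± 0.116). There Aspn and Lum, Lum and Ogn, Ogn and Bgn, and Dcn and Omd overlapped. Kera thus moved from place 9 to place 5, above every library of Dcn on this scale. Per kilobase of the longest transcript it kept place 5, but its lowest library (32.7) was below the highest of Dcn (36.8). The place of Bgn depends on the length used, since with the longest annotated transcript it had 183 CPM per kilobase in the anterior palate (place 1) and 211 in the posterior palate (place 3).

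The summed level of the 10 genes was 1388 to 1561 CPM in the anterior and 2090 to 2884 CPM in the posterior libraries. Its make-up differed as well. Kera held 0.216% to 0.287% of the family's CPM in the anterior and 3.02% to 4.796% in the posterior libraries. Aspn went from 12.0% to 16.6% up to 24.1% to 28.5%, so that its share, like that of Kera, was higher in each posterior than in each anterior library. Bgn went the other way, from 29.8% to 37.9% down to 20.1% to 29.1%, as did Dcn from 10.8% to 10.9% down to 4.56% to 6.504% and Fmod from 2.60% to 3.03% down to 0.663% to 1.07%. Lum differed little in share, with 19.9% to 20.8% in the anterior and 20.2% to 23.1% in the posterior palate. Shares of a whole are bound to each other, so a lower share of Dcn or Bgn does not mean a lower level.

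**Figure D3:**
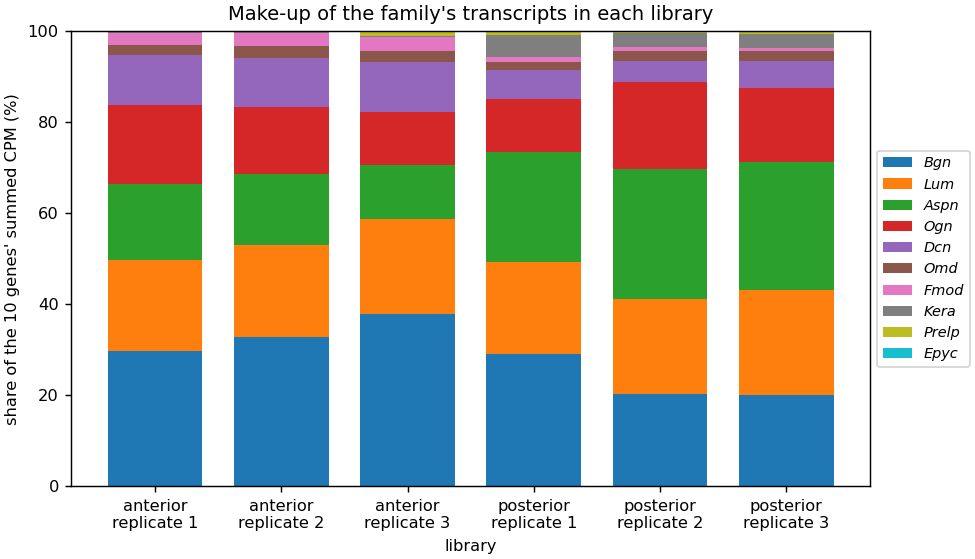
Share of each gene in the summed CPM of the 10 genes (percent, stacked bars) in each of the 6 libraries. Aspn (green) takes 24.1% to 28.5% and Kera (grey) 3.02% to 4.796% in the posterior libraries, against at most 16.6% and 0.287% in the anterior libraries.

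Genes beside the clusters were examined for differences of the same kind. Within 250 kb of a member, M21 places 40 other protein-coding genes, of which 25 passed the count filter. On chromosome 10 there were 2 such genes, neither above the filter, so that Kera had no tested neighbour other than Lum and Dcn. Of the 7 tested on chromosome 13 and the 8 tested on chromosome X, 0 were called by edgeR, although 1 on each chromosome had an unadjusted p below 0.05 and 1 on each was called by DESeq2. Ecm2, a leucine-rich matrix protein next to Aspn on chromosome 13, differed by 1.08 ± 0.32 (standard error) on the log2 scale, with an edgeR adjusted p of 0.0905, and by 0.42 with the library-group term. All 4 calls lay on chromosome 1 on the far side of Fmod from Prelp, and all were higher in the posterior palate, opposite to Fmod. Myog, a myogenic transcription factor, had a log2 fold change of 6.30 and Mybph, a myosin-binding protein, one of 6.41. Chil1, a chitinase-like protein, had 2.33 and Ppfia4, a liprin, 1.05 (edgeR adjusted p = 9.65e-05 for Myog, 0.000331 for Mybph, 0.0255 for Chil1 and 0.0284 for Ppfia4). Levels of Chil1 were low, with 0.0865 to 0.379 CPM in the anterior and 0.973 to 1.52 CPM in the posterior libraries. Chil1 (1.87) and Ppfia4 (0.76) were not called with the library-group term.

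**Figure D4:**
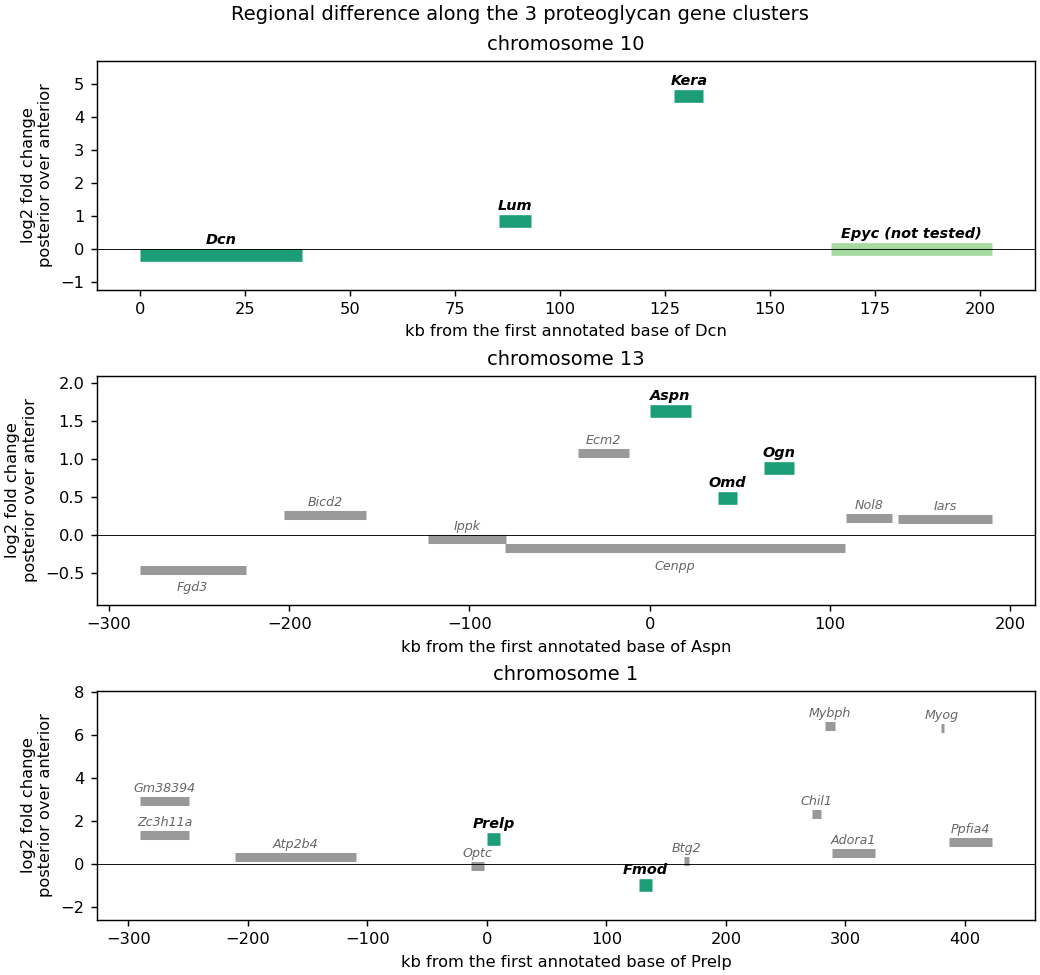
Log2 fold change of posterior over anterior palate against distance in kb along chromosomes 10, 13 and 1 for the family members (green) and the other tested protein-coding genes within 250 kb (grey), each bar spanning the annotated gene. Epyc was not tested and is drawn at 0 in light green to show its place only. Kera stands at 4.63, against 0.85 for Lum and -0.18 for Dcn on its left, and Fmod at -0.95 lies between Prelp and the muscle genes Mybph and Myog.

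The genes whose profile over the 6 libraries was nearest to that of Kera were found by the root mean square difference of centred log2(CPM + 0.5) values among 13897 genes. They were Chrna1 (0.18), a subunit of the muscle acetylcholine receptor, Synpo2l (0.21), Tceal7 (0.22), the slow troponin Tnni1 (0.23) and Klhl41 (0.23), a sarcomere protein, all with distances on the log2 scale. Chrna1 had 0.173 to 0.455 CPM in the anterior and 13.5 to 17.4 CPM in the posterior libraries. Tnni1 had 1.82 to 2.28 CPM and 31.0 to 53.9 CPM. Apart from Tnni1, the genes had 0.173 to 0.835 CPM in the anterior libraries, near the level of 3 counts. At such levels the added 0.5 CPM narrows a difference, so nearness to Kera does not mean an equal fold difference. The nearest family member, Aspn, came at place 216 (1.45), followed by Prelp at 450 (1.72), Lum at 686 (1.84) and Ogn at 732 (1.86).

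Markers of several other tissues moved with region beside these genes. All 8 skeletal muscle markers were called as higher in the posterior palate by edgeR, with a summed level of 9.94 to 13.2 CPM in the anterior and 560 to 959 CPM in the posterior libraries. Perimysial markers summed to 93.1 to 134 CPM and 163 to 198 CPM, with 3 of 4 called as higher in the posterior palate (Tbx15 with a log2 fold change of 1.75, Hic1 with 2.07 and Tbx18 with 1.10). The other, Aldh1a2, had 54.6 to 85.0 CPM in the anterior and 14.7 to 45.3 CPM in the posterior libraries (-1.23, not called). Cartilage markers summed to 149.5 to 192 CPM and 550 to 710 CPM (3 of 6 tested called as higher in the posterior palate). Tendon markers, which matter here because Kera, Lum, Aspn and Fmod are also tendon genes, summed to 578 to 642 CPM and 556 to 950 CPM. Of those 6, Mkx (0.61) and Thbs4 (3.02) were called as higher and Tnmd (-2.33), a defining tenocyte gene, as lower in the posterior palate, and Thbs4 was not called with the library-group term (1.51). Scx (1.02), Col14a1 (0.57) and Kctd12 (0.23) were not called. Scx had 3.20 to 11.3 CPM in the anterior and 11.7 to 14.9 CPM in the posterior libraries, and Tnmd had at most 7.56 CPM. Most of the tendon sum was Kctd12, with 422 to 640 CPM over the libraries. No marker of these lists was at 0 in every library. Their part in the levels of Kera, Lum and Aspn was not tested.

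Osteoblast markers, of interest beside Omd and Ogn, summed to 1972 to 3558 CPM in the anterior and 295 to 1822 CPM in the posterior libraries, with Dmp1 called as lower in the posterior palate among 6 tested. Ibsp made up most of the anterior sums and of that of posterior replicate 3. It had 2692, 2022 and 1403 CPM in the anterior and 17.9, 143 and 1279 CPM in the posterior libraries (-2.09, standard error 1.20, not called). Runx2 (-0.63), Sp7 (-1.39), Alpl (-0.92) and Spp1 (0.13) were not called either. Corneal keratocyte markers, relevant to Kera, had a sum of 38.8 to 52.7 CPM in the anterior and 28.4 to 36.1 CPM in the posterior libraries. Aldh3a1, a corneal crystallin, was the only one of 4 tested that was called, as lower in the posterior palate (log2 fold change -2.15, edgeR adjusted p = 0.0181), and was not called with the library-group term (-2.23). Aldh3a1 had 1.02 to 1.21 CPM in the anterior and 0.144 to 0.343 CPM in the posterior libraries, near the level of 3 counts, and at most 16 counts. Ptgds and Angptl7 reached at most 6 and 7 counts in any library. Meningeal fibroblast markers summed to 84.4 to 114 CPM and 33.1 to 81.4 CPM, with 0 of 3 tested called by edgeR, 2 with an unadjusted p below 0.05 and 1 called by DESeq2. Most of this difference was Aldh1a2, which is also on the perimysial list (70.5 ± 15.3 and 30.0 ± 15.3 CPM). Foxc1 had 26.8 ± 2.00 and 25.2 ± 8.44 CPM. Neuron markers summed to 38.0 to 44.4 CPM in the anterior libraries and to 66.3, 287 and 44.2 CPM in posterior replicates 1, 2 and 3, with Nefm (3.34) and Nefl (2.29, not called with the library-group term) called as higher. Pericyte and smooth muscle markers were mixed, with Acta2 (1.24) called as higher and Rgs5 (-2.04) and Kcnj8 (-1.72) as lower in the posterior palate. Of 6 epithelial markers Trp63 (-0.65) was called, as lower. For these tissues too, the part in the levels of the family was not tested. Of the endothelial, myeloid and glial markers, 5 tested in each list, edgeR called 0, with medians of 0.14, -0.01 and -0.12. At an unadjusted p below 0.05 there were 1, 2 and 1, and DESeq2 called 1, 0 and 0.

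To place the proteoglycans among the genes they work with, 88 genes in 6 lists were followed, of which 83 were tested. By edgeR's quasi-likelihood test 15 were called (18.1%, against 7.46% of all genes), 12 as higher in the posterior and 3 as higher in the anterior palate, with a median log2 fold change of 0.25. The lists were chosen with earlier results of these data known, so nothing is read from the difference between these shares. The count toward the posterior palate depended on single libraries. It was 3 without anterior replicate 1, 5 without anterior replicate 2, anterior replicate 3 or posterior replicate 2, 6 without posterior replicate 3, and 44 without posterior replicate 1. The count toward the anterior palate was 1 without anterior replicate 1 or 2, 0 without anterior replicate 3 or posterior replicate 2, 3 without posterior replicate 3 and 11 without posterior replicate 1. Tsku, Col3a1, Col5a3, Col12a1, Chst7, Dsel, Tpst1 and Egfr were called in only 1 of these 6 fits, that without posterior replicate 1. Podn, Col2a1 and Chsy3 were called in each of the 6 fits without 1 library, and 9 of the 15 were called with the library-group term.

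Collagens and their fibril partners were the list with the highest median log2 fold change (0.78 over 20 genes, 5 called as higher in the posterior palate and none as lower). The list summed to 15835 to 17301 CPM in the anterior libraries. Posterior replicate 1 had 20479 CPM, closer to these than replicates 2 and 3 (30711 and 37732 CPM). Col12a1, a collagen on the surface of fibrils, rose from 257 ± 64.5 to 1708 ± 1034 CPM (log2 fold change 2.73, adjusted p = 0.0230 by edgeR). This call was lost without any one library other than posterior replicate 1. Posterior replicate 1 had 522 CPM against 2181 and 2422 CPM in the other posterior libraries, and the fold change was 1.02 with the library-group term. Col2a1, the fibrillar collagen of cartilage, rose from 85.3 ± 16.9 to 507 ± 95.2 CPM (2.57, edgeR adjusted p = 0.000517). Col5a3 (1.81), Loxl3 (1.12), a collagen cross-linking oxidase, and Col3a1 (0.88) were also called. With the library-group term Col5a3 (0.84) and Col3a1 (0.44) were no longer called. The most abundant collagens that were not called were Col1a1 (0.84, adjusted p = 0.0503), Col1a2 (0.82, adjusted p = 0.0946) and Col5a1 (0.92, adjusted p = 0.0723 by edgeR), which had 0.54, 0.20 and 0.23 with the term.

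Other leucine-rich proteoglycans had a median log2 fold change of -0.10 over 7 tested, with 1 call in each direction. Podn, podocan, rose from 8.55 ± 0.919 to 19.5 ± 2.75 CPM (1.19, edgeR adjusted p = 0.0047). Tsku, tsukushi, a secreted inhibitor of BMP signalling, was lower in the posterior palate (54.5 ± 5.77 against 80.7 ± 7.52 CPM, -0.57, edgeR adjusted p = 0.0282), and was not called with the library-group term (-0.44) or without any one library other than posterior replicate 1. Optc, opticin, which lies beside Prelp, had -0.10 and Chadl 0.21, neither called.

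Enzymes that build and sulfate the glycosaminoglycan chains mostly did not pass the test. Of 22 for chondroitin and dermatan sulfate, 2 were called as higher in the posterior palate, Chsy3, a chondroitin synthase (7.11 ± 0.886 to 26.2 ± 9.18 CPM, 1.88, edgeR adjusted p = 0.0058), and Dsel, a dermatan sulfate epimerase (0.75, adjusted p = 0.0437, not called with the library-group term, 0.30). Chst7, a sulfotransferase, was called as lower (-0.98, edgeR adjusted p = 0.0393, not called with the term, -0.90). The most abundant uncalled genes were Chsy1 (-0.29), Fam20b (-0.04) and Dse (0.57), and the list's median was 0.19. For keratan sulfate, the chain that Kera, Lum and Fmod carry, and for sulfate donors and tyrosine sulfation, 1 of 11 tested genes was called. This was Tpst1, a tyrosylprotein sulfotransferase (58.8 ± 2.23 to 82.8 ± 4.46 CPM, 0.49, edgeR adjusted p = 0.0166). Its call was lost without any one library other than posterior replicate 1. The list's median was -0.10, and B4galt1 (-0.08), Papss1 (-0.10) and Chst2 (-0.37) were not called. Chst2 had 149.5 CPM in anterior replicate 3, where Prelp also stood apart, against 66.5 to 86.4 CPM in the other 5 libraries.

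Ligands and receptors that these proteoglycans bind gave 2 calls toward the posterior and 1 toward the anterior palate among 15 (median 0.25). Tgfb2 had 57.2 ± 18.1 CPM in the anterior and 144 ± 13.2 CPM in the posterior palate (1.33, edgeR adjusted p = 0.0110). Tgfb1 went the other way (72.1 ± 11.3 and 36.9 ± 6.72 CPM, -0.96, edgeR adjusted p = 0.0147), and was not called with the library-group term (-0.74). Egfr, which decorin binds, had a log2 fold change of 1.28 (edgeR adjusted p = 0.0323) and one of 0.49 with the term. The Egfr call was lost without any one library other than posterior replicate 1. Itgb1 (0.33), Igf1r (-0.01) and Lrp1 (1.33, adjusted p = 0.0713), an endocytic receptor of decorin, were not called. Lrp1 had 231 CPM in posterior replicate 1, within the anterior range, and 616 and 656 CPM in posterior replicates 2 and 3, and its fold change was 0.21 with the term.

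Proteases that process proteoglycans or their collagen partners had a median of 0.29 over 8 tested. Pcolce, the enhancer of the procollagen C-proteinase, was the only one called (87.9 ± 9.23 to 148 ± 15.4 CPM, 0.75, edgeR adjusted p = 0.00997). Bmp1 (0.20), the proteinase that trims the propeptides of Dcn and Bgn, Mmp2 (0.31) and Mmp14 (0.48) were not called.

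**Figure D5:**
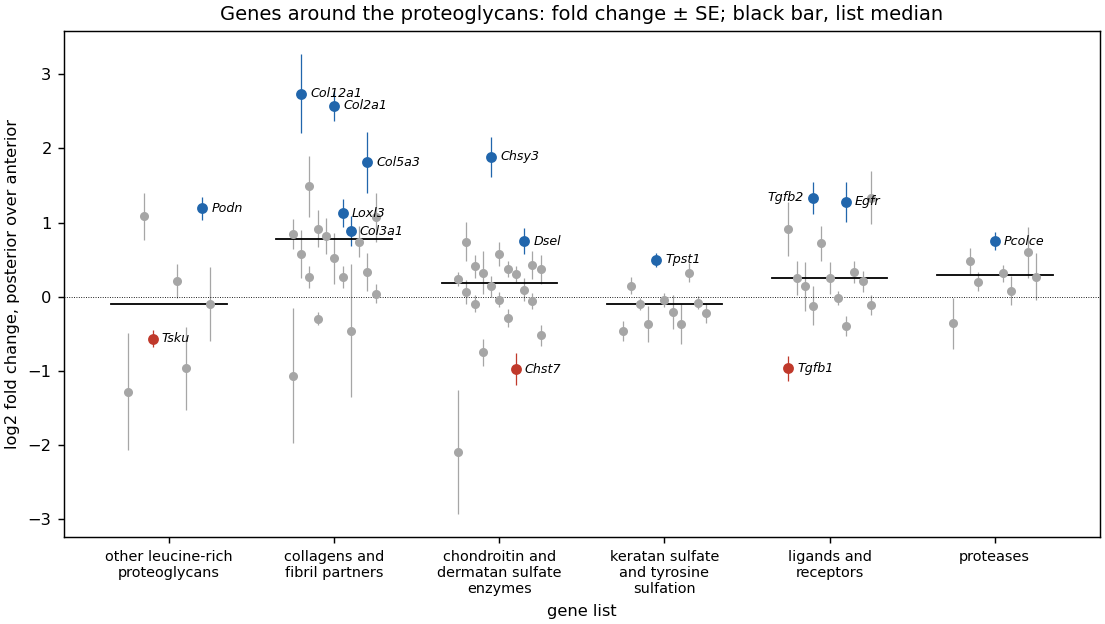
Log2 fold change of posterior over anterior palate (± standard error) of the 83 tested genes in 6 lists of genes that act with the proteoglycans, with called genes in blue (higher in the posterior palate) or red (higher in the anterior palate), others in grey, and the median of each list as a black bar. The collagen list has the highest median (0.78) and 5 calls, all toward the posterior palate.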

How the data were processed

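The authors deposited a table of raw read counts on Ensembl genes for each of the 6 libraries, unstranded and by strand, laid out as STAR does. The submitters' processing notes and the methods name HISAT2, StringTie, DESeq2 1.30.1 and mm10, and the annotation behind the counts is not given in the sources used here. The reverse-stranded counts were used, which were 18.95 to 23.1 times those of the other strand. Reads mapping to several places were not counted on genes. Symbols and positions came from GENCODE M21, with 52073 identifiers paired when version numbers were ignored and 35 of the same version. Replicates differed by more than sampling noise (chi-square per gene 3.44 to 67.5).

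A count of 10 or more in 3 or more libraries was required, which 15673 genes met. They were fitted in edgeR 4.0.16 (R 4.3.3) by region, with TMM scaling and the quasi-likelihood test, and adjusted p-values (Benjamini-Hochberg) under 0.05 were called. The fits were tested on simulated data. Genes named were the 10 members, in each list those called (at most 6 by fold change in each direction) and the 3 most abundant uncalled, the called protein-coding genes within 250 kb, and the 5 nearest to Kera with a mean log2 CPM of at least 1. Markers named singly beside a list's count, and Ecm2 among the neighbours, were chosen after their values were seen. The members and lists were chosen with earlier results of these data known. Alternatives were DESeq2 1.42.0, RLE, library size only, limma-voom (limma 3.58.1), other count filters, unstranded counts, a replicate block, the library-group term and leaving out each replicate. The library-group term splits the libraries where their shares of multimapping reads are farthest apart.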

Additional observations from a re-analysis of the deposited data

Results flagged for a closer look

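Counts on the strand opposite to Omd, outside the main measurement, were above the share that all genes had on the opposite strand in 4 of the 6 libraries, reaching 43 counts in posterior replicate 1. Anterior replicates 1, 2 and 3 had 41, 37 and 34 such counts, or 8.91%, 7.34% and 8.10% of the counts on the Omd strand, and posterior replicate 1 had 8.88%, against 4.73% to 5.28% over all genes in these libraries. Posterior replicates 2 and 3 had 6 and 5 counts (0.823% and 0.549%). Omd lies inside Cenpp, which is annotated on that strand.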

How the results depend on the processing

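Of all genes, 1978 were called with DESeq2 (1341 higher in the posterior, 637 in the anterior palate) and 2162 without the low-count filter (1516 and 646), against 1169 (763 and 406). Leaving out 1 replicate gave 498 to 7119 calls (312 to 3877 and 140 to 3242), the most without posterior replicate 1 and at most 637 without any other. In the 6 lists, 23 genes were called toward the posterior palate with DESeq2 and 23 without the filter, against 12, and 3 to 44 without 1 replicate. Toward the anterior palate they were 6, 6, 5 with library size only and 7 with the library-group term, against 3, and 0 to 11 without 1 replicate. Of the members, 3 to 6 were called over all settings. Calls were gained for Ogn with DESeq2 and without the low-count filter, for Ogn and Omd without posterior replicate 1, and for Prelp without anterior replicate 3. The library-group term gave Lum 0.51, Aspn 1.22, Ogn 0.18 and Omd 0.011, and medians of 0.51 on chromosome 10, 0.18 on chromosome 13 and 0.31 over the others. It was fixed with these libraries already known to stand apart, and the cause of that was not tested. Without 1 replicate Prelp ranged from 0.71 to 2.92. Per kilobase of the longest transcript, Dcn had 33.9 and 29.9 and Bgn 183 and 211 CPM in the anterior and posterior palate, and with unstranded counts Omd had 17.3 in the anterior and Epyc 0.118 CPM per kilobase in the posterior palate.

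Same-numbered samples had correlations of -0.053, 0.045 and 0.036 in their deviations, and differently numbered samples had -0.133 to 0.0904. In the posterior palate, chi-square per gene was 52.8 for replicates 1 and 2, 67.5 for 1 and 3, and 9.31 for 2 and 3. This split weighs on the posterior deviations, and whether same-numbered samples share embryos was not tested. With the replicate block 829 genes were called, 237 of them higher in the anterior palate, and 8 and 2 genes in the lists.

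For 37 genes of the lists and the neighbours named with a fold change, 295 of the values with all libraries kept had the same direction and side of the threshold, 14 passed it anew, 18 lost it and 2 changed sign, Fam20b (0.022) and Bmp1 (-0.041), both with the library-group term. Without 1 replicate 9 values of uncalled genes changed sign, within ranges of -0.70 to 0.23 for Optc, -0.085 to 0.016 for Fam20b, -0.61 to 0.020 for Chst2 and -0.061 to 0.031 for Igf1r, 57 calls were lost, 10 values passed anew and 140 kept direction and side. The calls of single marker genes were compared with the library-group term alone, with which 26 of 30 calls were kept. Depth limits Epyc, with at most 14 counts in a library, and in the anterior palate Prelp (19 and 30 counts in replicates 1 and 2) and Kera (36 to 59).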
